A study of Mus musculus with 18 samples.

Results

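Ts65Dn and Ts1Cje, a pair of mouse models of Down syndrome, were compared in enriched male germ cells taken at 19-20 days post partum (dpp). The comparison holds 6 of the 18 arrays, 3 Ts65Dn and 3 Ts1Cje, each 1 biological replicate RNA sample, and members were chosen by the genotype and age in the sample labels. Ts65Dn mice carry an extra marker chromosome with distal chromosome 16 and a proximal piece of chromosome 17, so that both segments are in 3 copies. Ts1Cje mice carry an extra copy of a shorter distal part of chromosome 16, translocated to chromosome 12. The other 12 arrays hold both models at 16-17 dpp and diploid wild-type littermates (WT) at both ages, 3 arrays per group, and entered the fit only for the spread between arrays and as points of comparison. The labels do not say which model's litters the WT animals came from, nor how many animals gave 1 sample, how the germ cells were enriched or the strain background.

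In the first wave of spermatogenesis germ cells advance nearly together, so the age of a juvenile testis sets the most advanced cell present. Spermatogonia enter meiosis, spermatocytes pair and recombine their chromosomes in the long pachytene stage while the X and Y chromosomes are silenced, and the divisions then give haploid round spermatids, which build the acrosome and the flagellum. Extra chromosomes can disturb pairing and slow or stop meiosis, and male infertility is known for Ts65Dn. In bulk RNA, fewer cells of a type and less RNA per cell cannot be told apart.

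Between 17102 and 19784 probes were detected per array (detection p under 0.05), and the median raw signal lay between 179.4 and 225.2. Of 46657 probes 21329 were tested, and 28.1% of these carry a gene name here, for 5174 genes. Levels below are normalised log2 intensities, differences are Ts65Dn minus Ts1Cje on the log2 scale with the standard error (SE) from limma, and p-values are adjusted by the Benjamini-Hochberg method over all 21329 probes. A probe or gene is called at an adjusted p under 0.05. Germ cell genes such as the piRNA factor Tdrkh (13.57 to 13.73 in Ts65Dn and 13.10 to 13.14 in Ts1Cje) were detected on all 6 arrays. So were the Sertoli cell genes Wt1, Dhh and Aard, with Aard at 15.59 to 15.72 in Ts65Dn and 15.15 to 15.53 in Ts1Cje, and the globin gene Hba-a1 at 12.68 to 14.15 in Ts65Dn and 12.60 to 14.55 in Ts1Cje.

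At 19-20 dpp the genes called higher in Ts65Dn included 5 of 6 spermatogonial genes, 30 of 168 X-linked genes and 8 of the 18 tested genes that only this model has in 3 copies. The genes called lower included 17 of 90 testis transcripts known as cloned cDNAs and 2 of 11 round spermatid genes. Of 21329 probes 2513 were called (11.8%), 1564 higher in Ts65Dn (7.33%) and 949 lower (4.45%), and the median over all probes was 0.09. An unadjusted p under 0.05 was found for 6870 of the 21329 probes, against which unadjusted counts in the lists below are to be read. With each array scaled to its median in place of quantile normalisation, 2135 were higher and 582 lower, so the share of calls that were higher was 78.6% with this scaling and 62.2% without it. Of the 5174 named genes 498 were higher (9.63%) and 178 lower (3.44%), and 61.6% lay above 0. For 34.7% of all named genes, called or not, the 3 Ts65Dn and 3 Ts1Cje values did not overlap. The median over named genes was 0.14, and 0.31 with median scaling, so that scaling adds 0.17 to a typical gene, and no list median given below changed sign with it.

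The count rested on few arrays. It was 95 without Ts65Dn replicate 2, 195 without Ts65Dn replicate 3 and 380 without Ts1Cje replicate 1, and of the 676 named genes called, 11, 36 and 72 kept their call in these 3 fits. Blocking on the replicate number, since same-numbered arrays of the models deviated together, gave 5458. The labels give this number only as a sample number and state no pairing or batch. The count was 4 when only the 6 arrays compared were fitted (4953 at an unadjusted p under 0.05). In that fit 0 of the 676 named genes kept their call by limma. At 16-17 dpp limma called 0 probes between the models (0%), where 1085 had an unadjusted p under 0.05. For the change of the difference between ages limma likewise called 0 (0%), where 3917 had an unadjusted p under 0.05. Blocked on the replicate number, the change between ages was called for 1098 probes, though same-numbered arrays did not all deviate together at 16-17 dpp, so this count depended on the block.

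The 14 lowest genes described, taken among called genes whose groups did not overlap, had differences between −4.07 and −2.27. At 16-17 dpp the differences of the same genes between the models lay between −2.29 and 0.37. Of these, 13 were called higher with age in WT, against 18.5% of all probes. In Ts65Dn against WT 11 were also called lower, against 3.02% of all probes. Their differences between Ts65Dn and WT lay between −3.29 and −2.25, and those between Ts1Cje and WT between −0.09 and 1.07. The genes were chosen on the same Ts65Dn and Ts1Cje arrays, so these values against WT are not separate support. Without Ts1Cje replicate 1, the array with the highest level for 13 of these genes, 9 of the 14 kept their call, and 2 and 7 without Ts65Dn replicates 2 and 3. Several are transcripts named after testis cDNA clones. The testis transcript 4930449I24Rik had 5.95 to 6.13 on the Ts65Dn arrays, undetected, against 12.12, 9.50 and 8.68 in Ts1Cje, at least 12.7-fold lower (adjusted p = 0.0091). The clones 1700001J03Rik and 4932416K20Rik were also undetected on every Ts65Dn array, at least 8.56-fold and 7.06-fold lower (adjusted p = 0.023 and 0.017).

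Other genes of this group were detected in both models. Fa2h, which hydroxylates fatty acids of sphingolipids, had 9.79, 8.51 and 9.16 in Ts65Dn and 12.99, 11.19 and 11.25 in Ts1Cje, a difference of −2.66 ± 0.40 (SE, n = 3 and 3, limma adjusted p = 0.0056). It was called in each of the 6 fits that left out 1 array of these groups, as was the long non-coding RNA 4930483J18Rik (−3.32 ± 0.45). Sptbn4, a spectrin of the membrane skeleton, had 8.10, 6.49 and 6.51 in Ts65Dn and 10.88, 9.23 and 9.12 in Ts1Cje (−2.71 ± 0.46). Prom1, the membrane protein prominin, differed by −2.27 ± 0.59 and Spata20, named for its link to spermatogenesis, by −3.06 ± 0.63. Rpl29, a ribosomal protein gene and the one gene of the 14 not called with age in WT, had 11.82, 7.54 and 7.23 in Ts65Dn and 12.78, 12.86 and 12.65 in Ts1Cje, so 1 Ts65Dn array lay near the Ts1Cje level.

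**Figure D1:**
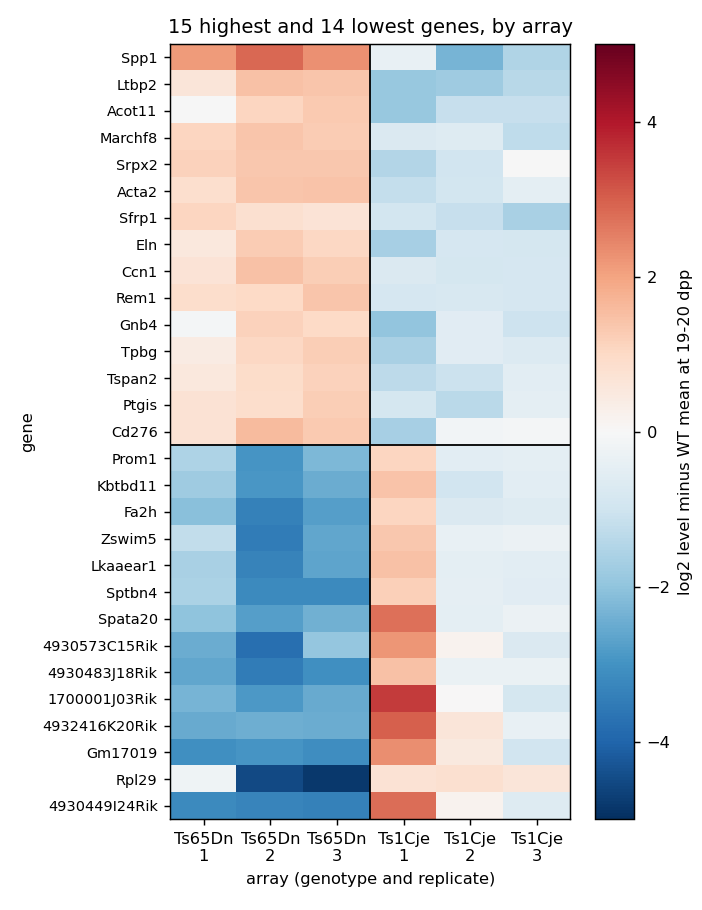
Level of the 15 highest and 14 lowest genes on each array at 19-20 dpp, as log2 level minus the WT mean at that age, columns being the 3 Ts65Dn and then the 3 Ts1Cje arrays. The 14 lowest genes are blue in all Ts65Dn columns except Rpl29 in replicate 1, and Ts1Cje replicate 1 holds the highest level for 13 of them.

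The 15 highest genes, chosen in the same way, differed by 1.83 to 3.82. Of these, 12 were not called with age in WT and 3 were called lower with age, and limma called 0 of the 15 in Ts65Dn against WT, a comparison in which 4.82% of all probes were called (1.8% higher, 3.02% lower) and 6548 had an unadjusted p under 0.05. Ts65Dn lay above WT in each of them, by 0.69 to 2.42, and Ts1Cje below WT, by −0.63 to −1.69. The genes were chosen on these same Ts65Dn and Ts1Cje arrays, so a WT level between the models can follow from the choice. At 16-17 dpp the differences between the models lay between −0.50 and 0.79. Only 2 of the 15 calls held without Ts1Cje replicate 1, and 0 and 0 by limma without Ts65Dn replicates 2 and 3.

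Spp1, osteopontin, a secreted phosphoprotein of bone matrix and activated cells, had 10.01, 10.77 and 10.18 in Ts65Dn and 7.53, 5.58 and 6.38 in Ts1Cje, detected on 1 of the 3 Ts1Cje arrays (3.82 ± 1.05, adjusted p = 0.035). It varied within other groups as well, with 6.80, 11.65 and 11.37 in Ts65Dn at 16-17 dpp and 8.26, 9.49 and 5.95 in WT at 19-20 dpp. Ltbp2, a matrix protein that binds latent TGF-beta, had 11.19, 12.04 and 11.98 in Ts65Dn and 8.69, 8.82 and 9.20 in Ts1Cje (2.83 ± 0.59, adjusted p = 0.014). The elastin gene Eln differed by 2.06 ± 0.54, the prostacyclin synthase gene Ptgis by 1.84 ± 0.45 and Sfrp1, a secreted Wnt antagonist, by 2.08 ± 0.59. Acot11, an acyl-CoA thioesterase, and Tpbg, a membrane glycoprotein, were the 2 that kept their call without Ts1Cje replicate 1 (adjusted p = 0.036 and 0.04). The 3 genes undetected on all Ts1Cje arrays were at least 2.82-fold (the ubiquitin ligase Marchf8), 2.48-fold (the small GTPase Rem1) and 2.05-fold (the matricellular Ccn1) higher.

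An age score placed each array along the change that WT germ cells undergo between the ages. It was the mean log2 level of the 3956 probes that rose with age in WT minus the mean of the 6002 that fell. It was set to 0 at the WT mean at 16-17 dpp. WT arrays are in neither group compared, though the spread used to call these probes came from all 18 arrays. At 19-20 dpp the score was 1.84, 0.79 and 1.03 in Ts65Dn and 3.57, 2.00 and 1.94 in Ts1Cje, with 3.13, 2.42 and 2.47 in WT. The Ts65Dn arrays lay below all Ts1Cje arrays. The Ts1Cje arrays spread wider than those of WT, on which the probes were chosen. The means differed by −1.28 (exact two-sided permutation p = 0.1, the smallest that 3 against 3 allows), and by −0.68 without Ts1Cje replicate 1 (exact permutation p = 0.2). Without Ts65Dn replicates 2 and 3 the difference was −1.07 and −1.20 (exact permutation p = 0.3 in both). Leaving out 1 of the other arrays gave −1.60 to −1.54 (exact permutation p = 0.1 to 0.2). At 16-17 dpp the score was −0.35, −0.28 and 0.01 in Ts65Dn and 0.57, −0.66 and 0.12 in Ts1Cje, which overlap.

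**Figure D2:**
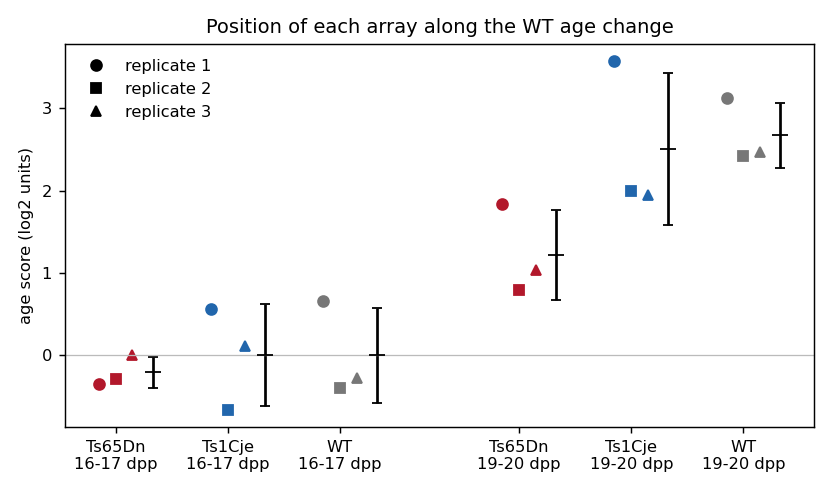
Age score of every array (vertical axis, log2 units) by genotype and age, with the mean and SD of each group of 3 beside its points. At 19-20 dpp the 3 Ts65Dn arrays sit between 0.79 and 1.84, below all Ts1Cje and WT arrays, whereas at 16-17 dpp the groups overlap.

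The called probes ran against the WT age change. Of the 1564 higher in Ts65Dn, 1157 (74.0%) were called lower with age in WT, 396 were not called with age and 11 were called higher with age. Of the 949 lower in Ts65Dn, 792 (83.5%) were called higher with age in WT, 153 were not called and 4 were called lower. With age in WT 46.7% of all probes were called, 28.1% lower and 18.5% higher. Probes called higher with age in WT had a median of −0.65 between the models at 19-20 dpp and −0.13 at 16-17 dpp. Against WT at 19-20 dpp their median was −0.78 in Ts65Dn and −0.11 in Ts1Cje. The same WT arrays served to choose these probes, which by itself can place both models below WT. Probes called lower with age had a median of 0.49 between the models at 19-20 dpp and 0.06 at 16-17 dpp. Across all 21329 probes, which share arrays and are not independent, the difference between the models correlated with the WT age change at −0.72 at 19-20 dpp and −0.24 at 16-17 dpp.

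**Figure D3:**
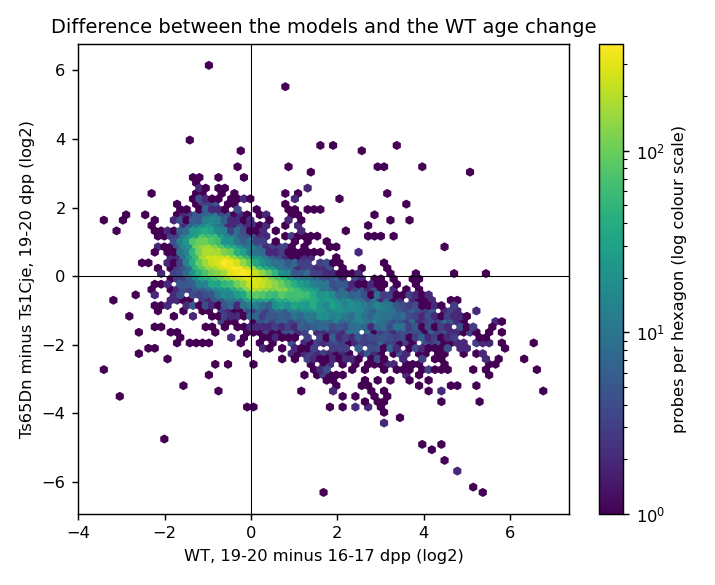
Difference between Ts65Dn and Ts1Cje at 19-20 dpp (vertical axis, log2) against the WT change from 16-17 to 19-20 dpp (horizontal axis, log2) for the 21329 tested probes, coloured by the number of probes per hexagon. Most probes lie on a falling band, with a correlation of −0.72, and single probes stand far off it.

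Genes that mark the stages of germ cells were read from lists of known markers. Spermatogonial genes were higher in Ts65Dn: 5 of 6 tested were called higher, against 9.63% of named genes, and the list median was 1.02, against 0.14 over named genes. Nanos3, an RNA-binding factor of early germ cells, had 8.13, 8.58 and 8.08 in Ts65Dn and 5.71, 7.02 and 7.35 in Ts1Cje (1.57 ± 0.42, limma adjusted p = 0.033). Gfra1, the GDNF co-receptor of spermatogonial stem cells, had 9.49, 9.60 and 9.33 in Ts65Dn and 8.35, 7.82 and 8.52 in Ts1Cje (1.25 ± 0.36), and it is 1 of the list's genes that were not called with age in WT (−0.06). Zbtb16, a transcription factor needed for stem cell upkeep, was undetected in Ts1Cje and at least 1.57-fold higher in Ts65Dn. Foxo1, a transcription factor of spermatogonia, and the X-linked homeobox gene Rhox13 were higher by 0.84 ± 0.25 and 0.87 ± 0.25, while Nanos2, at 0.73 ± 0.32, was not called. The median was 0.02 at 16-17 dpp. The 5 calls were lost without Ts1Cje replicate 1 (median 0.80), and also without Ts65Dn replicate 2 or 3.

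A few genes of meiotic chromosome structure, the piRNA pathway and the spindle were also called higher, in small lists to be read against the 9.63% of named genes called higher. Of 9 cohesin genes, which build the rings that hold sister chromatids, 2 were called higher (median 0.46): Smc3, the core subunit, at 9.42, 9.74 and 9.65 in Ts65Dn and 8.41, 9.02 and 9.05 in Ts1Cje (0.78 ± 0.21, adjusted p = 0.031), and Pds5b, a cohesin regulator (0.60 ± 0.15). The other probe of Smc3 differed by 0.49 and was not called. Of 4 synaptonemal complex and recombination genes 2 were called higher (median 0.82). Mei1, needed for the breaks that start recombination, had 8.76, 9.56 and 9.56 in Ts65Dn and 7.42, 8.58 and 8.49 in Ts1Cje (1.13 ± 0.28, adjusted p = 0.025). The other was 4930447C04Rik, also named Six6os1, a component of the synaptonemal complex (1.26 ± 0.36), whose groups overlapped. Of 4 piRNA genes Mov10l1, a helicase that binds piRNA precursors, and Tdrkh, a mitochondrial Tudor protein, were higher by 0.71 ± 0.21 and 0.55 ± 0.15. Of 7 spindle checkpoint and M phase genes 2 were called higher, the cyclin gene Ccnb1 (0.91 ± 0.19) and the centromeric histone gene Cenpa (1.15 ± 0.33), while the list median was −0.30 and Plk1 stood at −0.66 ± 0.28. All 8 of these calls were lost without Ts1Cje replicate 1, and also without Ts65Dn replicate 2 or 3.

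Genes of later stages lay below 0, and few of them were called. All 11 round spermatid genes tested lay below 0 (median −1.33, with 38.4% of named genes below 0), and 2 were called lower, against 3.44% of named genes: Spata20 and Tssk1, a testis-specific kinase, at 7.17, 6.50 and 6.69 in Ts65Dn and 10.33, 8.11 and 7.65 in Ts1Cje (−1.91 ± 0.50, adjusted p = 0.03). Blocked, 6 were called lower, against 8.31% of named genes, and without Ts1Cje replicate 1 Spata20 alone kept its call (−2.01), which it lost without Ts65Dn replicate 2 or 3. Tssk2, its neighbour on chromosome 16, was undetected in Ts65Dn and was not called. Tekt3, a filament protein of the flagellum, had 11.45, 9.43 and 10.35 in Ts65Dn and 13.25, 11.85 and 11.96 in Ts1Cje, whose lowest value lay above all of Ts65Dn, but its difference of −1.94 ± 0.82 was not called (adjusted p = 0.12). Of 5 pachytene to diplotene genes, all below 0 (median −1.16), Aurkc, the kinase of meiotic divisions, was called lower, at 11.31, 10.48 and 10.67 in Ts65Dn and 12.64, 11.79 and 11.65 in Ts1Cje (−1.21 ± 0.34, adjusted p = 0.036). With the block 2 were called.

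All 11 flagellum and axoneme genes tested were below 0 (median −0.76), and the dynein heavy chain gene Dnah2 was called lower (−0.93 ± 0.22, adjusted p = 0.021). With the block 4 were called lower, against 8.31% of named genes. Of 90 transcripts named after testis cDNA clones 17 were called lower, against 3.44% of named genes, and 1 higher, with a median of −0.75, and 6 of these 18 calls held without Ts1Cje replicate 1, 1 and 4 without Ts65Dn replicates 2 and 3. The 5 genes of the Speer family, a rodent family of spermatid glutamate-rich proteins with near-identical copies that a probe may not separate, had a median of −0.77, and limma called 0 of 5, with 0 at an unadjusted p under 0.05. The calls of Aurkc, Dnah2 and Tssk1 were lost without any 1 of Ts1Cje replicate 1 and Ts65Dn replicates 2 and 3.

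**Figure D4:**
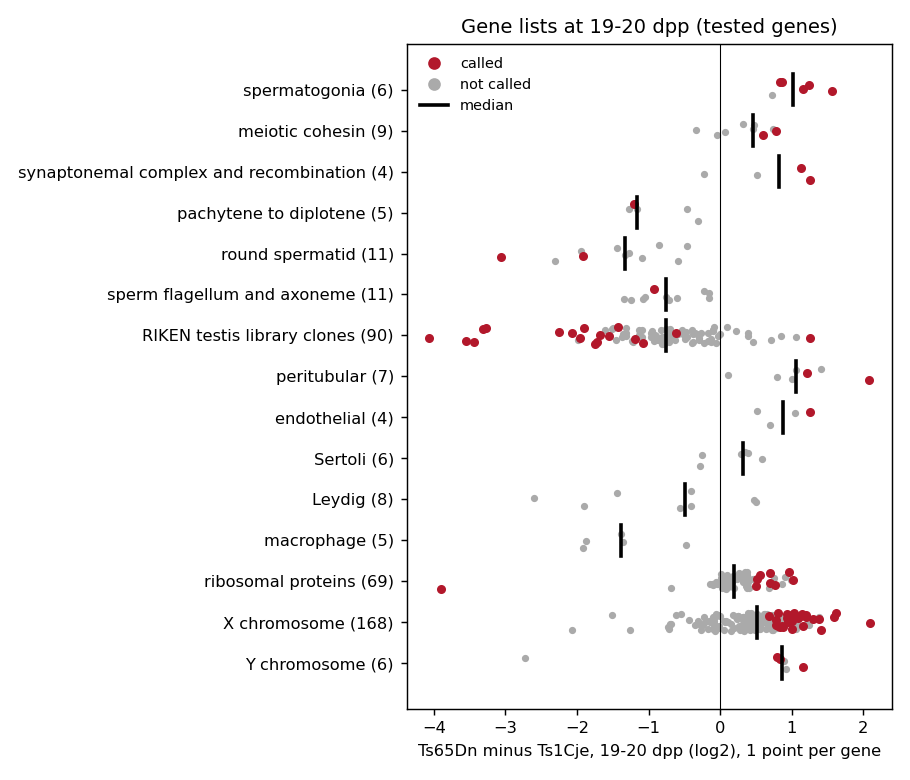
Difference between Ts65Dn and Ts1Cje at 19-20 dpp (horizontal axis, log2) for each tested gene of 13 lists and of the X and Y chromosomes, with the number tested in parentheses, red points for called genes and a black bar at the median. Medians lie above 0 for spermatogonial, peritubular and sex-linked genes and below 0 for round spermatid genes, testis clones and macrophage genes.

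Promoter sequences were read where genes fell together. The window shown for a gene is RefSeq's 250 bases before to 50 bases after its annotated start in build GRCm38.p6, the first window listed where a gene has several, and 143 of the 178 lower and 399 of the 498 higher named genes had one. Counted on both strands were 12 words, some of which overlap, and the share of lower genes is given against that of tested named genes. The word picked for description after all 12 shares had been seen was AACNGTC, a core that MYB factors bind, among them A-MYB of pachytene spermatocytes. It was in 14.0% of windows of lower genes, in 5.51% of windows of higher genes, in 7.41% of windows of tested named genes and in 8.09% of all 27025 windows. Counting any window of a gene gave 16.8%, 6.52%, 9.02% and 9.17%. Related MYB words did not all run the same way. The form ACCGTTA was in 2.10% of windows of lower genes (3 genes) against 0.627% of those of tested genes. The longer form AACNGTTA was in 1.40% (2 lower genes) against 0.555%. For the remaining form, which was AACGGTC, the shares were 0.699% (1 lower gene) against 1.40%. Shares that rest on so few lower genes cannot tell these words apart. The cAMP response element TGACGTCA was in 2.80% of windows of lower genes (4 genes) against 3.47%. With 1 free base, as TGACGTNA, it was in 2.80% (4 genes) against 5.11%, and its core, searched as TGACG, in 23.1% against 31.8%. The X-box that RFX factors of ciliated cells bind was in 1.40% against 0.434% in full and in 2.80% against 2.75% with 2 free bases, and its start, searched as GTTGCC, was in 16.1% against 12.9%. The E-box, searched as CACGTG, was in 8.39% of windows of lower genes against 9.94%. The Ets site, searched as CCGGAAG, was in a smaller share of lower than of tested genes. The 3 sequences below are windows that hold AACNGTC, from genes called lower whose groups did not overlap. Not all such genes were eligible for printing, so the genes shown need not be the 3 lowest. The sequences are written 5′ to 3′ on the gene's strand with the match in capitals. They belong to the testis transcript 4930449I24Rik (chr5:146502149-146502448, + strand), to Thsd7b, a thrombospondin-repeat protein (chr1:129273054-129273353, + strand), and to the testis clone 1700067K01Rik (chr8:84001213-84001512, + strand).
4930449I24Rik: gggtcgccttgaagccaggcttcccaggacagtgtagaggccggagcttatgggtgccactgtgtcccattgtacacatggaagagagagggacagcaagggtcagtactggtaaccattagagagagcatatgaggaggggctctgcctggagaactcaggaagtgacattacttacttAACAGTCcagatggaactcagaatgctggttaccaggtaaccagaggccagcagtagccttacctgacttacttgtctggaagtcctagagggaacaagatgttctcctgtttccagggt
Thsd7b: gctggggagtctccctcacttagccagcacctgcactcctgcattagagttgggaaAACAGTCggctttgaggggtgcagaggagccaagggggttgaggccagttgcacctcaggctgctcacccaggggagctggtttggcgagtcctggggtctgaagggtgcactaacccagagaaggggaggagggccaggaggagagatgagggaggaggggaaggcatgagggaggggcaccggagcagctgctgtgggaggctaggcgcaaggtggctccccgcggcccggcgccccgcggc
1700067K01Rik: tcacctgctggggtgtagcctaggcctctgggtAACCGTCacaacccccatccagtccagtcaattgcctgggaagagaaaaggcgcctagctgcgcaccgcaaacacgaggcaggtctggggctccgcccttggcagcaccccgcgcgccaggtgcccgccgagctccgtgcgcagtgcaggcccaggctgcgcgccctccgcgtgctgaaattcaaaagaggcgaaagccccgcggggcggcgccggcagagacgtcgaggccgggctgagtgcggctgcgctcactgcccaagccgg

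The match began 70 bases before the annotated start in 4930449I24Rik, 194 bases before it in Thsd7b and 217 bases before it in 1700067K01Rik. These genes differed by at least 12.7-fold, by −2.06 and by at least 2.03-fold, lower in Ts65Dn. A match is a description of letters and not a bound site.

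Some segments are in 3 copies in Ts65Dn and 2 copies in Ts1Cje, a ratio that corresponds to 0.58 on the log2 scale. On chromosome 16 this segment runs from Mrpl39 to Sod1, which the Ts1Cje translocation disrupts in its extra copy. Of its 78 genes 21 were named on the array and 8 tested, and 5 of the 8 were called higher at 19-20 dpp, against 9.63% of named genes, with a median of 1.02. The 8 passed a filter over all 18 arrays, and the 13 named genes that did not pass are not described. App, the amyloid precursor protein, had 13.31, 13.76 and 13.59 in Ts65Dn and 11.66, 12.53 and 12.69 in Ts1Cje (1.26 ± 0.25, adjusted p = 0.013). At 16-17 dpp it had 13.99, 14.04 and 13.84 in Ts65Dn and 12.74, 13.30 and 13.19 in Ts1Cje (0.88 ± 0.25), again without overlap. It was 1.39 above WT in Ts65Dn and 0.13 in Ts1Cje at 19-20 dpp.

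Gabpa, an Ets family transcription factor, had 10.90, 11.41 and 11.57 in Ts65Dn and 10.25, 10.25 and 10.06 in Ts1Cje (1.11 ± 0.19, limma adjusted p = 0.0079). Sod1, the cytosolic superoxide dismutase, had 14.59, 14.75 and 14.91 in Ts65Dn and 13.44, 13.92 and 14.08 in Ts1Cje (0.94 ± 0.18), and its other probe differed by 0.72. Bach1, a repressor of haem-responsive genes, had 7.83, 8.51 and 7.97 in Ts65Dn and 6.18, 7.15 and 6.86 in Ts1Cje (1.37 ± 0.26). Adamts5, a protease that cleaves matrix proteoglycans, had 10.08, 10.58 and 10.89 in Ts65Dn and 7.82, 8.81 and 9.76 in Ts1Cje (1.72 ± 0.48), where replicate 3 of Ts1Cje came near. The groups did not overlap for any of the 5 called genes, nor for 663 of the 676 named genes called.

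Among the rest of this segment Jam2, a junction adhesion molecule, stood at 0.91 ± 0.41 without being called. Adamts1, a matrix protease, was not well above background on the 3 Ts1Cje arrays, detected on 2 of the 3 Ts65Dn arrays and not called. Usp16, a deubiquitinase of histone H2A, was the one gene below 0, with 8.91, 8.68 and 8.71 in Ts65Dn and 10.13, 9.15 and 9.13 in Ts1Cje (−0.70 ± 0.28, adjusted p = 0.1), and it was called lower with the block (adjusted p = 0.046). With age in WT, Usp16 stood at 0.67 without being called, while App, Sod1, Gabpa and Bach1 were called lower and Adamts5 was not called, these 5 lying between −1.15 and −0.76. A higher copy number and a smaller age change would both raise those genes in Ts65Dn, and their parts cannot be told apart. At 16-17 dpp, where the age scores overlapped, 7 of the 8 were above 0, against 49% of named genes, with a median of 0.50 against −0.01 over named genes. Of the 5 calls, 4 held without Ts1Cje replicate 1, 2 without Ts65Dn replicate 3 and 0 without Ts65Dn replicate 2 by limma (4431 probes at an unadjusted p under 0.05), with list medians of 0.85 to 1.18 over the 6 fits that left out 1 array.

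On chromosome 17, from the centromere to Pde10a, 10 of 46 genes were tested and 3 were called higher, against 9.63% of named genes, with a median of 0.33 against 0.14. Scaf8, which binds RNA polymerase II, had 8.71, 8.65 and 8.80 in Ts65Dn and 7.39, 7.65 and 7.57 in Ts1Cje (1.19 ± 0.24, adjusted p = 0.012). Zdhhc14, a palmitoyltransferase, had 10.61, 11.29 and 11.21 in Ts65Dn and 9.60, 9.90 and 10.09 in Ts1Cje (1.17 ± 0.26). Ezr, ezrin, which links membranes to actin, had 11.23, 11.58 and 11.49 in Ts65Dn and 10.57, 10.77 and 10.65 in Ts1Cje (0.77 ± 0.22). Not called were the kinase Rps6ka2 (0.69 ± 0.39), Tagap1 (0.39 ± 0.23, with another probe called at 0.72), Tmem242 (0.28 ± 0.15), the tubby-like Tulp4 (0.15 ± 0.12), the lactate dehydrogenase-like Ldhal6b (−0.06 ± 0.92), Tmem181a (−0.30 ± 0.19) and Tcp10a of the t-complex (−0.99 ± 1.18). With age in WT Tcp10a was called higher, by 4.62, and Ldhal6b stood at 1.64 without being called. At 16-17 dpp all 10 genes lay above 0, against 49% of named genes, with a median of 0.55, among them Rps6ka2 at 1.22 and Ezr at 1.06. Of the 3 calls at 19-20 dpp only that of Scaf8 held without Ts1Cje replicate 1 (list median 0.20), and 0 held by limma without Ts65Dn replicate 2 or 3.

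**Figure D5:**
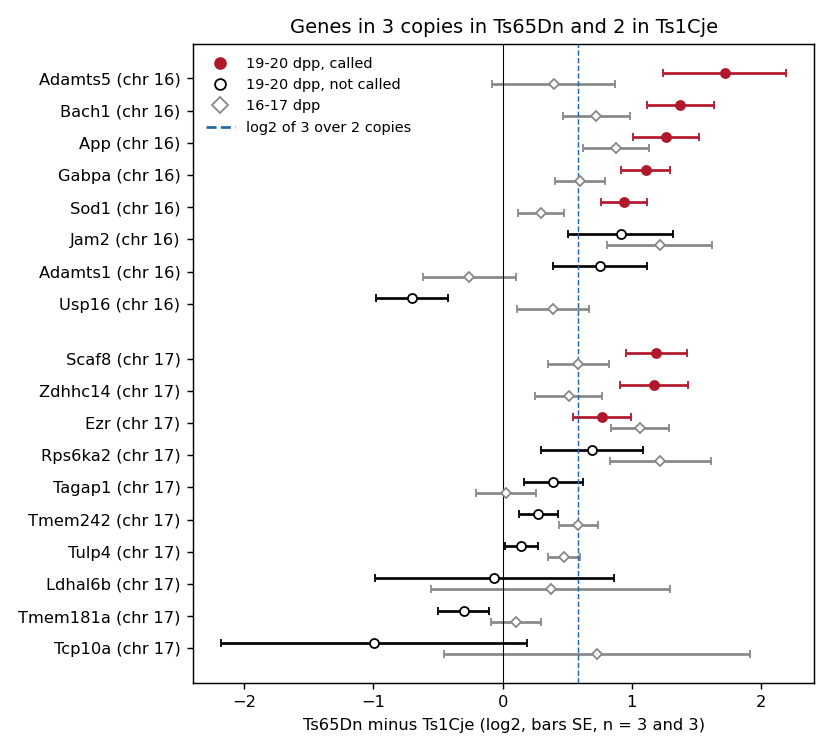
Difference between Ts65Dn and Ts1Cje (horizontal axis, log2, bars SE, n = 3 and 3) for the 8 genes of chromosome 16 and 10 of chromosome 17 in 3 copies in Ts65Dn alone, circles for 19-20 dpp (red where called) and diamonds for 16-17 dpp. At 16-17 dpp 17 of the 18 diamonds lie right of 0, with medians of 0.50 on chromosome 16 and 0.55 on chromosome 17 beside the dashed line at 0.58, and at 19-20 dpp the circles spread from −0.99 to 1.72, that of Adamts1 being a fitted value against arrays not well above background.

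Genes in 3 copies in both models had a median of 0.09 over 19 tested. Of these, 2 were called higher and 1 lower, against 9.63% and 3.44% of named genes. Clic6, a chloride intracellular channel protein, had 10.76, 11.53 and 11.27 in Ts65Dn and 8.97, 10.31 and 9.76 in Ts1Cje (1.51 ± 0.40, adjusted p = 0.031), Ttc3, a ubiquitin ligase, differed by 0.76 ± 0.22 with another probe called at 0.92, and Eva1c was lower by −0.50 ± 0.15. The kinase gene Dyrk1a differed by −0.02. These 3 calls were lost without Ts1Cje replicate 1, and also without Ts65Dn replicate 2 or 3. On the part of chromosome 16 that is in 2 copies in both models, 15 of 136 genes were called higher and 5 lower, shares close to the 9.63% and 3.44% of named genes, with a median of 0.18 against 0.14 over named genes. Of these 20 calls 1 held without Ts1Cje replicate 1, and 0 by limma and 1 without Ts65Dn replicates 2 and 3. The 7 genes listed for the end of chromosome 12, where Ts1Cje carries its translocation, were not among the named probes and are not analysed here.

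On the X chromosome more genes were called higher than over all named genes. Of 168 X-linked genes 30 were called higher (17.9%, against 9.63% of named genes) and 0 lower by limma (0%, against 3.44%), and the median was 0.51, against 0.02 to 0.18 for the 19 autosomes. Differences of the called genes ran from 0.68 to 2.10, and 27 of the 30 were called lower with age in WT, where the X-linked median was −0.98. Tktl1, a transketolase-like enzyme, had 11.40, 12.11 and 11.99 in Ts65Dn and 10.26, 10.82 and 10.82 in Ts1Cje (1.20 ± 0.20, adjusted p = 0.0072). Fmr1nb, a testis gene next to Fmr1, had 13.50, 13.52 and 13.43 in Ts65Dn and 12.29, 12.51 and 12.65 in Ts1Cje (1.00 ± 0.20). Phka2, a subunit of phosphorylase kinase, differed by 0.78 ± 0.16 and the ubiquitin ligase scaffold Cul4b by 0.93 ± 0.29. At 16-17 dpp the X-linked median was 0.16. Only 3 of the 30 calls held without Ts1Cje replicate 1 (median 0.23), with 0 by limma and 1 without Ts65Dn replicates 2 and 3.

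On the Y chromosome 3 of 6 genes were called higher, against 9.63% of named genes. Usp9y, a deubiquitinase, had 11.17, 11.29 and 11.37 in Ts65Dn and 10.10, 10.04 and 10.22 in Ts1Cje (1.16 ± 0.18, adjusted p = 0.0059) and was called in each fit that left out 1 of these 6 arrays. At 16-17 dpp Usp9y stood at 11.70, 11.50 and 11.47 in Ts65Dn and 11.91, 11.19 and 11.66 in Ts1Cje, which overlap. Eif2s3y, a translation initiation factor subunit, was higher by 0.84 ± 0.18 and Rbmy, a splicing factor with several near-identical copies, by 0.80 ± 0.19. Zfy1, a zinc finger factor of meiosis, and Kdm5d, a histone demethylase, stood at 0.89 ± 0.28 and 0.92 ± 0.34 without being called and were called with the block (adjusted p = 0.037 and 0.021). Ssty1, of a spermatid-expressed multicopy family, was undetected on the Ts65Dn arrays and detected on 2 Ts1Cje arrays, and was not called (adjusted p = 0.078). Of the 3 calls 2 held without Ts1Cje replicate 1, and 1 without Ts65Dn replicate 2 or 3.

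Levels of markers of other testis cells are given here, and their part in the results above was not tested. Peritubular smooth muscle and matrix genes were detected 7 of 7 on each Ts65Dn array and 5 or 6 of 7 on the Ts1Cje arrays, with mean log2 levels of 10.16 to 10.60 in Ts65Dn and 8.68 to 9.96 in Ts1Cje, with WT at 8.80 to 10.46, and at 16-17 dpp of 11.02 to 11.04 in Ts65Dn and 10.70 to 11.49 in Ts1Cje. Acta2, smooth muscle actin, had 10.82, 11.37 and 11.38 in Ts65Dn and 8.78, 9.06 and 9.49 in Ts1Cje (2.08 ± 0.54, limma adjusted p = 0.029), and Mylk, myosin light chain kinase, was higher by 1.22 ± 0.33. These were the 2 called of 7 (median 1.06), where 9.63% of named genes were called higher. Both calls were lost without Ts1Cje replicate 1 and without Ts65Dn replicate 2 or 3. The collagen genes Col1a1 (1.42 ± 0.65) and Col3a1 (0.80 ± 0.63) were not called. Endothelial genes averaged 8.40 to 8.73 in Ts65Dn and 7.06 to 8.15 in Ts1Cje. Of 4 tested 1 was called higher, against 9.63% of named genes: Egfl7, a secreted vascular protein (1.26 ± 0.34), a call lost in the same 3 fits.

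Leydig and macrophage genes split the Ts1Cje arrays. Cyp11a1, the enzyme of the first step of steroid synthesis, had 5.79, 5.68 and 6.23 in Ts65Dn, undetected on all 3, and 5.97, 9.38 and 10.12 in Ts1Cje. The 8 Leydig genes averaged 7.50 to 7.65 in Ts65Dn and 7.31, 8.77 and 8.98 in Ts1Cje, with 4 or 5 of 8 detected per array in Ts65Dn and 3, 7 and 8 in Ts1Cje. Limma called 0 of the 8, with 2 at an unadjusted p under 0.05. Without Ts1Cje replicate 1 Cyp11a1 and Prlr, the prolactin receptor, were called lower (limma adjusted p = 0.013 and 0.027). Without Ts65Dn replicate 2 or 3 limma called 0 of the 8. Over all 6 arrays Cyp11a1 was at least 4.16-fold lower in Ts65Dn without being called. At 16-17 dpp all 8 lay above 0, with a median of 0.62. The 5 macrophage genes averaged 7.16 to 7.50 in Ts65Dn and 7.95, 8.46 and 9.69 in Ts1Cje, and the lysozyme gene Lyz2, at 6.86, 6.38 and 6.38 in Ts65Dn and 6.53, 8.65 and 10.08 in Ts1Cje, was not called (adjusted p = 0.1) and was called lower without Ts1Cje replicate 1 (adjusted p = 0.045). Of the 5 macrophage genes 0 were called by limma, also without Ts65Dn replicate 2 or 3, and 4 had an unadjusted p under 0.05. The unadjusted counts in this paragraph are to be read against 6870 of all 21329 probes under 0.05. Ts1Cje replicate 1, with the highest age score, was the lowest of the Ts1Cje arrays in both lists. Of 6 Sertoli genes 0 were called by limma (1 at an unadjusted p under 0.05), with means of 11.68 to 12.14 in Ts65Dn and 10.91 to 12.30 in Ts1Cje, and of 3 red cell genes 0 were called (0 unadjusted), with means of 8.30 to 9.45 in Ts65Dn and 8.55 to 9.67 in Ts1Cje.

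Of 69 ribosomal protein genes 8 were called higher and 1 lower (median 0.19, with 61 above 0), close to the 9.63% and 3.44% of all named genes, among the higher ones the X-linked Rpl10 (0.97 ± 0.30) and Rpl23a (0.50 ± 0.12), and the lower one was Rpl29. With the block 16 were called higher, against 19.5% of named genes. The lists that follow, without the block, are to be read against the 9.63% and 3.44% as well. Of 44 genes of oxidative phosphorylation 1 was called, Ndufb7 of complex I, lower by −0.69 ± 0.18 (median 0.13), and of 15 proteasome genes 1, Psmb10, a subunit of the immunoproteasome, higher by 0.77 ± 0.24 (median 0.04). Of 31 genes matched by chaperone symbols 2 were called higher and 1 lower: Hspg2, which is perlecan, a matrix proteoglycan and no chaperone (1.76 ± 0.36), and the co-chaperone Dnajc6, undetected in Ts1Cje (at least 1.30-fold), were higher, and Dnajb2 was lower by −0.93 ± 0.26. All of these calls were lost without Ts1Cje replicate 1, and also without Ts65Dn replicate 2 or 3.

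Smaller groups gave single calls, to be read against the 9.63% of named genes called higher. Irf1, an interferon-induced transcription factor, had 10.96, 11.47 and 10.99 in Ts65Dn and 10.00, 9.41 and 9.71 in Ts1Cje (1.43 ± 0.30, adjusted p = 0.015) and kept its call without Ts1Cje replicate 1 (1.58), though not without Ts65Dn replicate 2 or 3. The other 4 interferon genes tested were not called. Of 6 p53 and DNA damage genes Tnfrsf10b, a death receptor undetected in Ts1Cje, was at least 1.59-fold higher, while its other probes were not called. Of 3 genes of sperm energy metabolism the glycolytic Gpi1 was higher by 1.02 ± 0.24, while its other probe, at 0.84, was not called. The calls of Tnfrsf10b and Gpi1 were lost without Ts1Cje replicate 1, and also without Ts65Dn replicate 2 or 3. The 1 dissociation stress gene tested, Junb, stood at 1.21 ± 0.39 (adjusted p = 0.056), and of 2 retrogenes of sex-linked genes Tktl2 stood at −1.07 ± 0.39 and was called with the block (adjusted p = 0.0063), while its other probe, at −1.55, was called without it (limma adjusted p = 0.034).

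Some genes called between the models were not called with age in WT, which does not show that they did not change with age. Of the 676 named genes called, 150 were not called with age in WT, 114 of them higher and 36 lower in Ts65Dn, and 3 moved the way WT moves with age. These 3 were Cep55, a protein of the midbody that joins dividing germ cells (0.79 ± 0.22), and Ushbp1, undetected in Ts1Cje (at least 1.57-fold), both higher, and the class I histocompatibility gene H2-Q8, undetected in Ts65Dn (at least 1.51-fold lower). Cdkn3, a phosphatase of cyclin-dependent kinases, had 6.73, 6.19 and 6.93 in Ts65Dn and 9.79, 8.06 and 8.31 in Ts1Cje (−2.11 ± 0.49, adjusted p = 0.02). Sox5, a transcription factor with a testis isoform, had 9.46, 9.44 and 9.46 in Ts65Dn and 12.19, 10.10 and 10.23 in Ts1Cje (−1.39 ± 0.40, adjusted p = 0.04), so that its difference leaned on Ts1Cje replicate 1. Its other probe was called as well, at −1.65. None of these 5 kept its call without Ts1Cje replicate 1.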

How the data were processed

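RNA of 18 samples was measured on Illumina MouseWG-6 BeadArrays. The deposited intensity of each probe is an average bead signal, not normalised, with a detection p-value, both from BeadStudio per the submitters' processing notes, which name no version. The authors' deposited value table holds log2 values that match quantile normalisation without background correction, and served only as an alternative. Intensities were background-corrected with limma (3.58.1, R 4.3.3) nec at offset 16, using negative-control levels inferred from the detection p-values, then quantile-normalised and set on the log2 scale. Of 46657 probes, 257 controls and probes detected (p under 0.05) on fewer than 3 arrays were left out. One limma model over 6 groups of 3 gave each contrast, with Benjamini-Hochberg adjustment. The array number limits the precision, and the design text calls the samples biological replicates.

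Genes were named through RefSeq gene numbers in the probe identifiers and clone symbols, and the brightest tested probe stood for a gene. By rule, the genes named are all tested genes in 3 copies in Ts65Dn alone, the 15 highest and 15 lowest called genes whose groups do not overlap and that were detected on all 3 arrays of the higher group, and of every other list its called members and up to 4 others with the largest difference. The X-linked genes outside lists, the called genes that moved with WT age or were not called with it, Dyrk1a, Thsd7b, 1700067K01Rik, Ssty1 and Psmc1 were chosen after their values were seen. Some genes that the rule names are not reported here, 1 of the 15 lowest among them. Members and lists were chosen with earlier results of these data known. Same-numbered arrays of the models at 19-20 dpp deviated together, with residual correlations of 0.57, 0.57 and 0.33, so blocked values are given where they change a call. At 16-17 dpp the correlations were −0.16, 0.35 and 0.34. Deviations from a group mean sum to 0, so the correlations are not independent, and they came from the same arrays that were then blocked. The labels state no pairing or batch. The fit was tested on simulated data. Alternatives were background correction, scaling, filter, samples fitted, block, array weights and leaving out each array.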

Additional observations from a re-analysis of the deposited data

How the results depend on the processing

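The 2513 probes called at 19-20 dpp became 1373 with all probes kept, 1661 with probes detected on all 18 arrays, 4 with only the arrays of the groups compared, 5458 with the replicate block, 7160 with array weights and 3880 with a block of 6 consecutive array numbers in the file headers, an alternative chosen after seeing the data. Leaving out 1 array gave 95 to 3680 calls. The count at 16-17 dpp was 134 with array weights, 6 with only the arrays of the groups compared and 1 with median scaling, and 0 to 1 with 1 array left out. The count for the change between ages was 5 without background correction, 5 in the authors' value table, 4 with offset 50, 7 with all probes kept, 3 with probes detected on all 18 arrays, 1 with only the arrays of the groups compared, 1098 with the replicate block, 2719 with array weights and 0 to 20 with 1 array left out. The chromosome 17 median of 0.33 was 0.49 with median scaling and 0.20 to 0.37 with 1 array left out. The causes of these changes were not tested, apart from the fewer arrays or other probes fitted. The age score difference was −1.60 to −0.68 when 1 array was left out. Of 2285 values of the 146 called genes that are named, 707 lost the call and 0 reversed.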

Other observations

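Some probes took 1 of 2 separate levels on single arrays. Psmc1, a proteasome ATPase, had 5.60, 11.03 and 5.87 in Ts65Dn and 5.87, 11.18 and 10.96 in Ts1Cje, so both groups held a low array. These values were not tested further.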
